A study of Mus musculus with 6 samples.

Results

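Ribosome biogenesis genes were taken as the genes of the deposited mouse liver table whose Gene Ontology column holds the entry named exactly ribosome biogenesis and whose mean FPKM (fragments per kilobase scaled to depth, a level that can be compared between genes) was at least 1 over the 6 libraries. Of 100 annotated genes, 97 met this rule and are called members here, out of 55401 genes in the table and 10051 genes that reached the same level and were tested. All 97 are protein coding, and they lie on 20 chromosomes. The level rule used the mean over all libraries. *Naf1* (mean FPKM 1.02), *Nvl* (1.04) and *Riox2* (1.08) lay just inside it, and *Riok1* (0.608), *Prkdc* (0.375) and *Gm14214* (listed at 0 in all 6 libraries) lay outside it and were not tested. For 5 members, *Naf1*, *Urb2*, *Utp23*, *Xpo1* and *Nvl*, the mean of at least 1 group was below FPKM 1, so that their place among the members depended on the other groups.

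Ribosomes are built mainly in the nucleolus. RNA polymerase I transcribes a long precursor of the ribosomal RNAs, small nucleolar ribonucleoproteins modify it, and large assemblies of helicases, GTPases and scaffold proteins fold it, cut it and join it to ribosomal proteins, until separate small and large subunits leave the nucleus and are finished in the cytoplasm. Mitochondria assemble a ribosome of their own with a separate set of factors. In liver this machinery is known to be raised before hepatocytes grow or divide and to respond to nutrients and to stress.

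The 6 libraries held poly(A) RNA of C57BL/6 mouse liver in 3 groups of 2. The control group (replicates 1 and 3) is labelled control and normal. The APAP group (replicates 1 and 3) received acetaminophen, a drug whose overdose injures hepatocytes, at 400 mg/kg for 6 h. The COS+APAP group (replicates 2 and 3) was pretreated with costunolide, a plant sesquiterpene lactone, at 20 mg/kg. Costunolide was given first 12 h before and again 40 min before the same dose of acetaminophen by intraperitoneal injection. Age, sex, vehicle and the time at which control liver was taken are not given in the labels used here. Whether both libraries of a group came from different mice is not stated, so the p-values measure only the spread between these libraries, which may be technical.

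Limits of the labels and of the tissue bear on every result that follows. The protocol text assigns the costunolide pretreatment to samples 5 and 6, and in the order of the samples these positions hold the libraries titled model. If that text were right and the titles wrong, the names of both treated groups would have to be swapped, and with them the signs of the differences between them. The titles of both COS+APAP libraries carry the prefix 2 and those of the other 4 carry the prefix 1, so costunolide and whatever the prefix stands for cannot be told apart. Estimated counts totalled 71115112 to 76669799 per library. The extraction protocol mentions an adipose type, while all 8 hepatocyte markers were detected in every library, with a summed FPKM of 52210 and 51430 in control, 62210 and 59760 after APAP and 50970 and 48410 after COS+APAP. Of 7 erythroid markers, the summed FPKM was 298 and 269 in control, 1492 and 1075 after APAP and 309 and 316 after COS+APAP, with 0 to 2 of the 7 at 0 in a library. Of 7 neutrophil markers it was 4.08 and 6.68 in control, 32.2 and 10.8 after APAP and 4.04 and 2.58 after COS+APAP, with 1 to 3 at 0. Of 10 sinusoidal endothelial markers it was 44.2 and 47.2 in control, 55.4 and 52.4 after APAP and 32.5 and 29.3 after COS+APAP, with none at 0. Of 10 stellate cell markers it was 69.6 and 64.8 in control, 75.7 and 73.9 with APAP and 48.7 and 28.3 with COS+APAP, with none at 0. Of 6 cholangiocyte markers it was 28.5 and 34.4, 51.1 and 35.4, and 20.2 and 21.0 in the same order, with 0 or 1 at 0. Of the markers tested, 7 of 9 endothelial, 3 of 5 stellate and 2 of 3 cholangiocyte markers were lower in COS+APAP than in APAP. The part of these shifts in the results below was not tested. In whole liver, fewer cells of a type and less RNA per cell cannot be told apart.

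Most members were expressed at low to moderate levels. The median of the mean FPKM was 4.92 for members and 4.2 for all genes tested. A mean FPKM of 1 to 5 was found for 50 members, 5 to 20 for 35, and 20 or more for 12. The 5 highest were *Rplp0* (mean FPKM 242), a protein of the ribosomal stalk, *Glul* (92.9), the glutamine synthetase of hepatocytes around the central vein, *Rpl7a* (44.8), a protein of the large subunit, *Rcl1* (43.9), a factor of early small subunit processing, and *Imp3* (27.5), a small nucleolar RNA-binding protein of the same step. *Glul* carries the annotation although it is best known as a metabolic enzyme. *Rplp0*, *Rpl7a* and *Rps28* have processed copies elsewhere in the genome, and their counts are uncertain to the extent that reads were shared with these.

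The first comparison asked which members differed after acetaminophen. In APAP liver 43 of the 97 members were higher than in control, 13 were lower and 41 did not pass the test (edgeR's quasi-likelihood test, Benjamini-Hochberg adjusted p below 0.05). Among all genes tested, 23.3% were higher and 22.1% were lower, 45.4% in either direction. The shares of members were 44.3% and 13.4%. The median log2 fold change was 0.43 over the members and 0.00 over all genes, and a change of at least 2-fold that passed the test was found for 20 members upward and 4 downward. These counts describe the list and are not a test of it. *Naf1* and *Nvl* would have missed the level rule without the group in which they were highest, and the 95 other members, a set chosen after seeing the data, had 42 higher, 13 lower and a median of 0.43. The median of all genes moved to -0.26 when libraries were scaled to their totals without mitochondrial transcripts, which took 12.8% and 16.1% of control counts, 8.28% and 7.37% of APAP counts and 11.8% and 10.8% of COS+APAP counts. Under that scaling 34 members were higher and 19 lower, with a median of 0.17. Of all 10051 genes tested, 1613 were then higher and 3283 lower. The difference between the member median and the median of all genes was 0.44 under both scalings. A change of scale shifts all genes by about the same amount, so it could hardly move this difference. The difference was 0.32 with limma on log2(FPKM + 1) and 0.37 for genes of mean FPKM at least 5. It was 0.35 without control replicate 1, 0.40 without control replicate 3, 0.35 without APAP replicate 1 and 0.52 without APAP replicate 3. With 1 library left out, the count of lower members was 7 without control replicate 1, 6 without control replicate 3, 5 without APAP replicate 1 and 11 without APAP replicate 3.

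**Figure D1:**
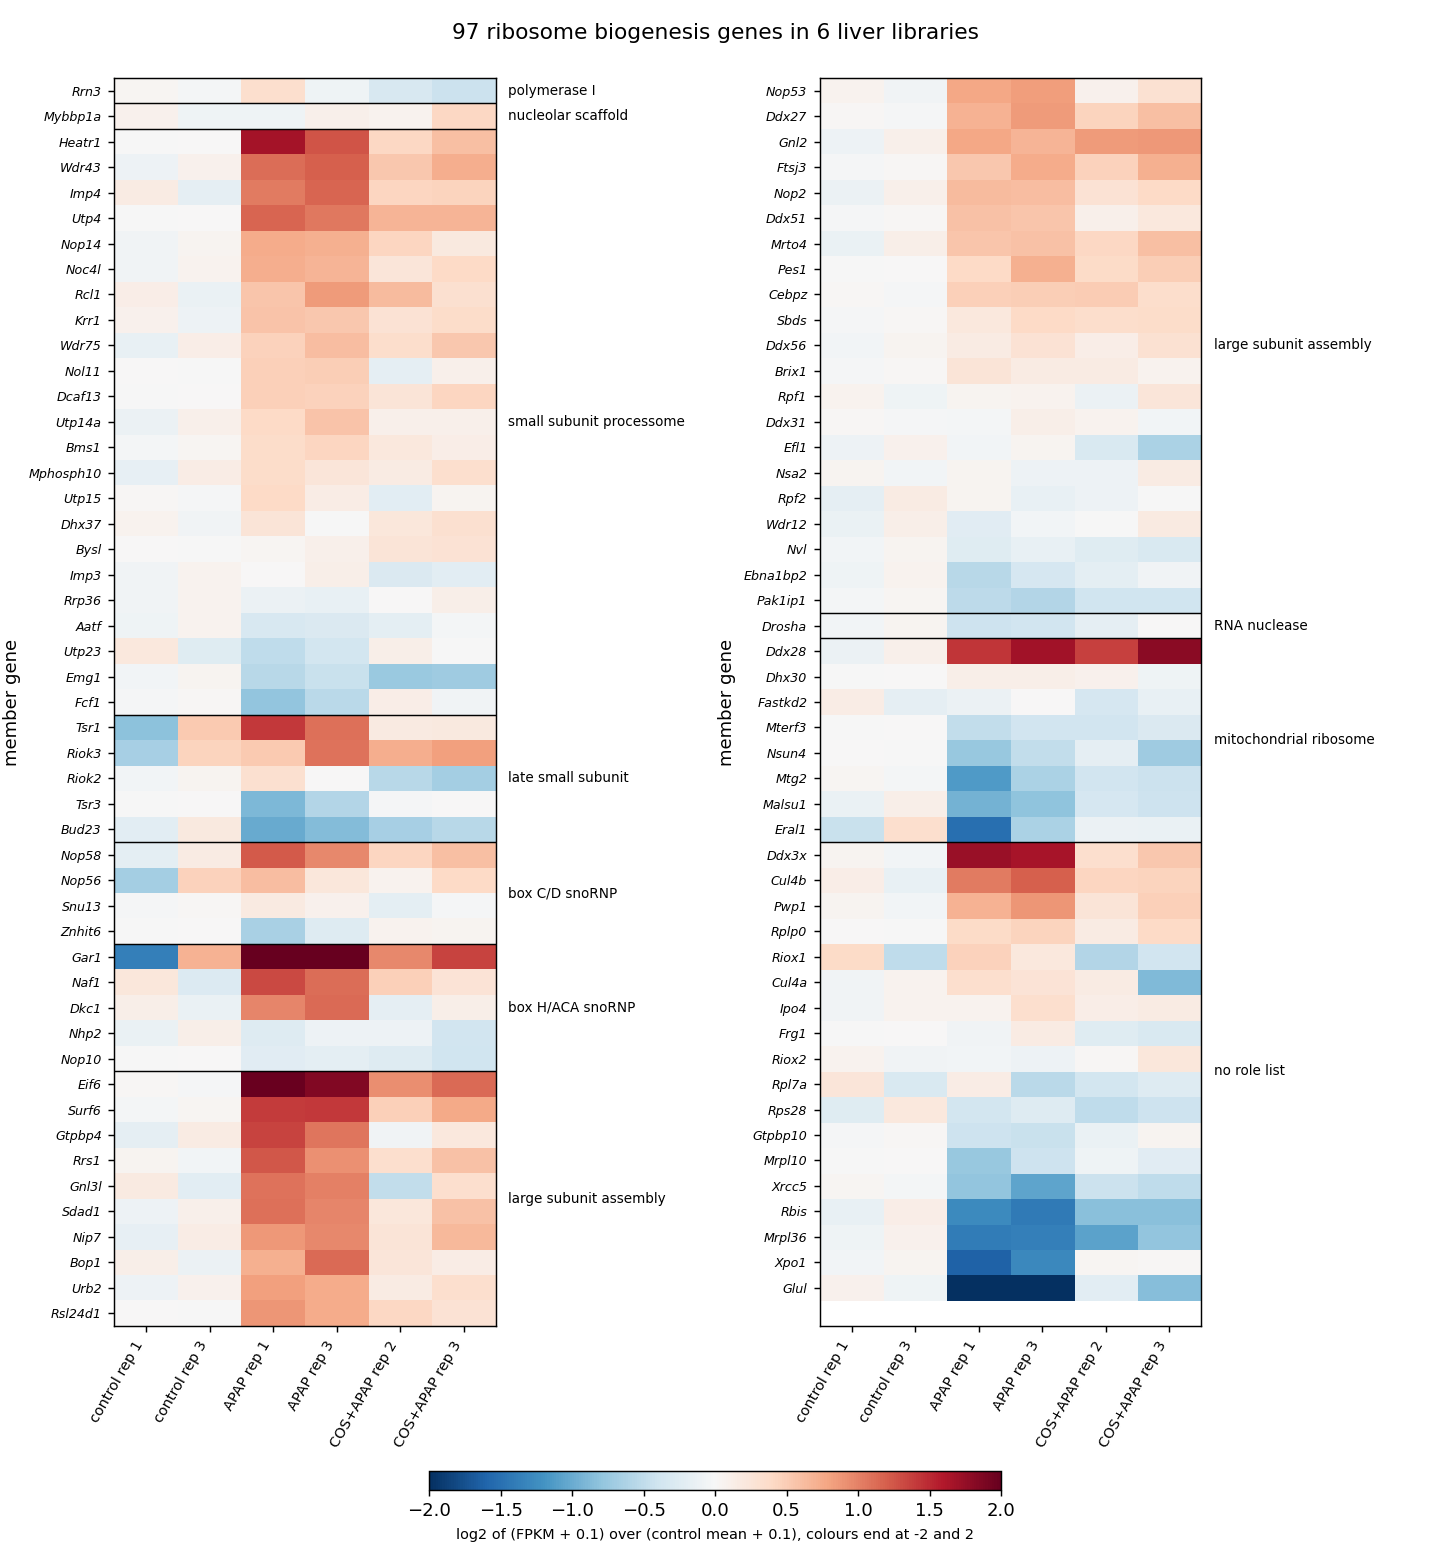
Each row is 1 of the 97 members and each column 1 library, with rows grouped by role and ordered within a role by the APAP minus control difference. Colour shows log2 of (FPKM + 0.1) over the mean of the control libraries (+ 0.1), red above and blue below, and ends at -2 and 2. The small subunit processome (13 of 23 called higher) and large subunit assembly (20 of 31) hold many rows that are red in both APAP libraries, and the blue rows at the foot are *Glul*, *Xpo1*, *Mrpl36* and *Rbis*. FPKM is not scaled as in the test.

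Factors that assemble the large subunit held the greatest number of higher members, 20 of 31, with 1 lower (*Pak1ip1*) and a median log2 fold change of 0.73. With any 1 library left out 17 or 18 were higher and 0 lower. *Eif6* lies at chr2:155819832-155826925 and encodes the factor that binds the large subunit and keeps it from joining the small one until it is released in the cytoplasm. Its FPKM was 10.6 and 10.3 in control, 41.2 and 37.8 after APAP and 19.9 and 23.1 after COS+APAP. Every APAP library was above every COS+APAP library, and these above every control library. With 2 libraries a group such separation of FPKM values was common. Both APAP values lay above both control values for 53.6% of members and 32.1% of all genes tested, and below for 26.8% and 44.1%. For COS+APAP against APAP the shares above were 24.7% and 33.3%, and those below 49.5% and 35.3%. For COS+APAP against control they were 46.4% and 25.0% above, and 20.6% and 42.3% below. *Eif6* was 4.16-fold higher in APAP than in control (log2 fold change 2.06, SE 0.14, adjusted p = 0.00109, edgeR).

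*Surf6* (chr2:26888628-26902879), a nucleolar matrix protein that binds rRNA, had an FPKM of 1.58 and 1.68 in control, 4.44 and 4.49 after APAP and 2.32 and 2.82 after COS+APAP. The APAP replicates differed by less than the control replicates, and no groups overlapped. The log2 fold change of APAP over control was 1.59 (SE 0.16, adjusted p = 0.0019, edgeR). *Gtpbp4* (chr13:8966331-8996083), a nucleolar GTPase of the large subunit precursor, had an FPKM of 1.97 and 2.52 in control, 5.89 and 4.81 after APAP and 2.14 and 2.60 after COS+APAP. Its control and COS+APAP values overlapped, and both APAP values were above all of these (log2 fold change over control 1.40, SE 0.20, adjusted p = 0.00449, edgeR).

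The other large subunit factors called higher ranged from *Sbds* (log2 fold change 0.45), which acts with *Efl1* to release *Eif6* protein, to *Rrs1* (1.24), which helps build the central part of the precursor. *Pes1* and *Bop1*, which encode subunits of the PeBoW complex of large subunit maturation, were higher by 0.70 and 1.08 on the log2 scale. *Wdr12*, the third subunit of that complex, had a log2 fold change of -0.01 (adjusted p = 0.978) with FPKM values of 1.26 and 1.52 in control and 1.18 and 1.33 in APAP. *Efl1* had a log2 fold change of 0.14 (adjusted p = 0.554). Called and uncalled members thus stood side by side among partners, and the difference between them was not tested. *Pak1ip1*, a large subunit assembly factor, was lower by a log2 fold change of -0.43 (SE 0.11, adjusted p = 0.0263, edgeR), with FPKM values of 9.93 and 10.6 in control and 7.08 and 6.76 in APAP.

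**Figure D2:**
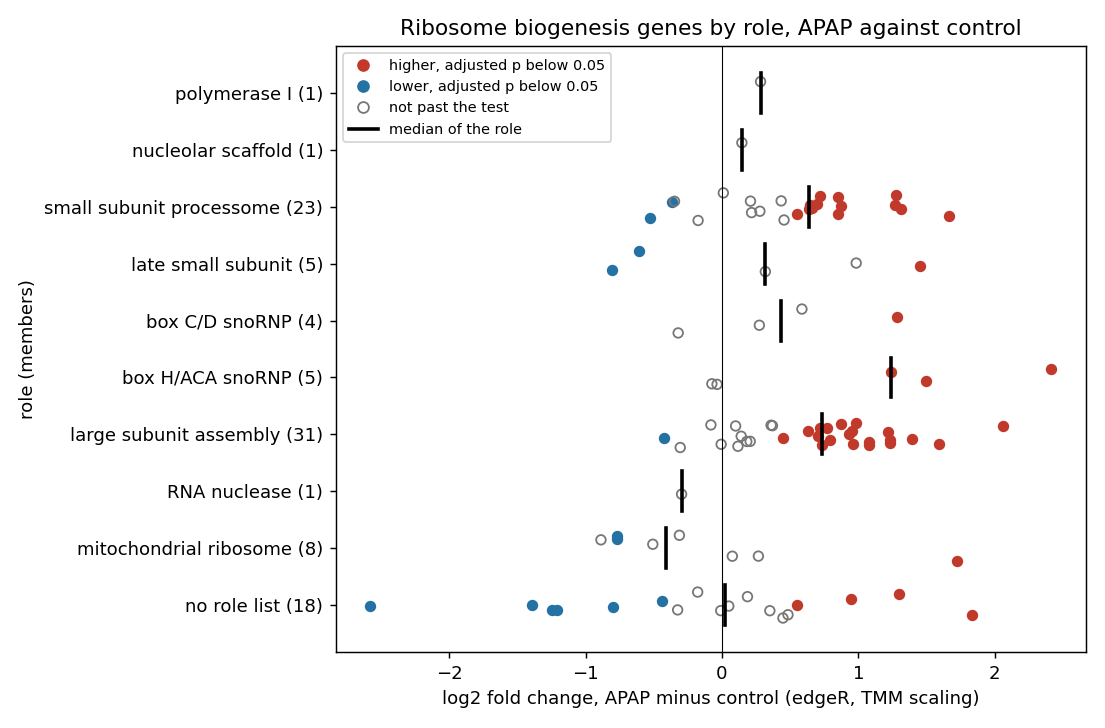
Each point is 1 member, placed by its log2 fold change of APAP over control (horizontal axis) within its role (vertical axis, number of members in brackets). Filled red points were higher and filled blue points lower at an adjusted p below 0.05, open points did not pass, and the black bar is the median of the role. Medians run from 1.24 in the 5 box H/ACA members to -0.41 in the 8 mitochondrial ribosome members. The box H/ACA median includes *Naf1*, which met the level rule only through its APAP values. The other box H/ACA members stand at 2.41 (*Gar1*), 1.24 (*Dkc1*), -0.04 (*Nhp2*) and -0.07 (*Nop10*), so the top place of this role depends on *Naf1*.

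The small subunit processome, the large particle that forms on the precursor RNA and makes its early cuts, had 13 higher and 2 lower of 23 members and a median log2 fold change of 0.64. Higher members numbered 9 without control replicate 1 and 9 without APAP replicate 3, and lower ones 0 without control replicate 1, control replicate 3 or APAP replicate 1 and 1 without APAP replicate 3. Scaling to totals without mitochondrial transcripts gave 8 higher and 3 lower of the 23, beside 1613 higher and 3283 lower of all 10051 genes tested. *Heatr1* (chr13:12395027-12440289), a scaffold protein of the processome, had an FPKM of 1.75 and 1.76 in control, 5.80 and 4.32 after APAP and 2.38 and 2.71 after COS+APAP. The APAP replicates were further apart than those of the other groups, and no groups overlapped. The log2 fold change over control was 1.67 (SE 0.19, adjusted p = 0.00257, edgeR). *Heatr1* overlaps 875 bases of *Lgals8* (mean FPKM 28.9) on the opposite strand, and use of the strand in counting is not stated, so reads of this overlap cannot be told apart.

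*Wdr43* (chr17:71615895-71659031), a processome protein that takes part in polymerase I transcription, had an FPKM of 3.11 and 3.55 in control, 7.33 and 7.74 after APAP and 4.91 and 5.58 after COS+APAP. *Utp4* (chr8:106893636-106923088), a subunit of the same early subcomplex, had an FPKM of 3.33 and 3.38 in control, 7.62 and 7.10 after APAP and 5.45 and 5.46 after COS+APAP. *Imp4* (chr1:34439851-34449356), which binds the U3 small nucleolar RNA, had an FPKM of 1.79 and 1.40 in control, 3.38 and 3.68 after APAP and 2.19 and 2.20 after COS+APAP. For all 3 genes the COS+APAP libraries lay between the control and the APAP libraries. Their log2 fold changes of APAP over control were 1.31 for *Wdr43* (adjusted p = 0.00196), 1.27 for *Utp4* (adjusted p = 0.00169) and 1.28 for *Imp4* (adjusted p = 0.00304, all edgeR). The lower processome members were *Fcf1*, a nuclease-like factor (log2 fold change -0.53, adjusted p = 0.0257), and *Emg1*, an rRNA methyltransferase (-0.37, adjusted p = 0.0385).

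Late maturation of the small subunit had 1 higher and 2 lower of 5 members, with a median log2 fold change of 0.32. On the whole list of this role, 5 of 17 tested genes were higher (29.4%) and 3 lower (17.6%). The shares of all genes tested were 23.3% and 22.1%. *Tsr1* (chr11:74898071-74909342), a GTPase-like factor that keeps unfinished small subunits from translating, had an FPKM of 1.05 and 2.81 in control, 5.29 and 4.26 after APAP and 2.20 and 2.23 after COS+APAP. Control replicate 1 was low, and both APAP values were above the 4 others. The log2 fold change over control was 1.45 (SE 0.45, adjusted p = 0.0449, edgeR), and it did not pass without APAP replicate 1 (adjusted p = 0.163) or without APAP replicate 3 (0.0875). Its fold change on the log2 scale was 0.92 without control replicate 1 and 2.31 without control replicate 3. The call was lost in 10 of 16 alternatives, among them upper-quartile scaling (adjusted p = 0.0601), library totals (0.0602), filterByExpr (0.0509) and no level filter (0.0634). *Tsr1* also overlaps *Srr* on the opposite strand and small nucleolar RNAs on its own.

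*Tsr3* and *Bud23*, 2 enzymes that modify the rRNA of the small subunit, were lower in APAP. *Tsr3* (chr17:25240170-25242798) had an FPKM of 15.2 and 15.3 in control, 8.11 and 10.1 after APAP and 15.0 and 15.4 after COS+APAP. *Bud23* (chr5:135052957-135064959) had 8.19 and 10.9 in control, 4.70 and 5.19 after APAP and 5.97 and 6.45 after COS+APAP. The control and COS+APAP libraries overlapped for *Tsr3* and did not for *Bud23*. The log2 fold changes of APAP over control were -0.61 for *Tsr3* (SE 0.14, adjusted p = 0.0178) and -0.81 for *Bud23* (SE 0.16, adjusted p = 0.0124, both edgeR). Without APAP replicate 1 the adjusted p was 0.0709 for *Tsr3* and 0.0662 for *Bud23*, and *Tsr3* also missed the threshold without control replicate 1 (0.0639) or control replicate 3 (0.0617). The kinase *Riok2* did not pass (log2 fold change 0.32, adjusted p = 0.15), and *Riok1*, which was outside the level rule, had an FPKM of 0.39 and 0.40 in control, 1.02 and 0.83 after APAP and 0.49 and 0.52 after COS+APAP.

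Box H/ACA ribonucleoproteins convert chosen uridines of rRNA into pseudouridine, and 3 of their 5 members were called higher in APAP (1 without APAP replicate 1). The 3 include *Naf1*, which met the level rule only through its APAP values. *Dkc1* (chrX:75095854-75109777), the pseudouridine synthase itself, had an FPKM of 1.74 and 1.45 in control, 3.24 and 3.62 after APAP and 1.40 and 1.74 after COS+APAP. Both APAP values were above the other 4, which overlapped one another. Its log2 fold change over control was 1.24 (SE 0.19, adjusted p = 0.00567, edgeR). *Gar1* (chr3:129824912-129831396), a core protein of the particle, had an FPKM of 0.55 and 2.62 in control, 7.92 and 7.53 after APAP and 3.17 and 4.21 after COS+APAP. The control replicates differed more from each other than the APAP replicates did. The log2 fold change of *Gar1* was 2.41 (SE 0.68, adjusted p = 0.0336, edgeR). It was 1.70 without control replicate 1 and 3.89 without control replicate 3, and it missed the threshold without APAP replicate 1 (0.105) or without APAP replicate 3 (0.0866).

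*Naf1*, the chaperone that *Gar1* protein replaces in the maturing particle, had an FPKM of 0.75 and 0.50 in control, 1.72 and 1.47 after APAP and 0.91 and 0.78 after COS+APAP. Its mean FPKM over the other 2 groups was 0.735, so it met the level rule only through the APAP libraries, and its difference is given as values with no test. The small core proteins *Nhp2* and *Nop10* were far more abundant per length, with FPKM values of 18.1 to 25.7 and 23.0 to 30.6 over the 6 libraries, and did not pass (log2 fold changes -0.04 and -0.07). In the box C/D particles, which guide methylation of rRNA, 1 of 4 members passed. That member, *Nop58*, a core scaffold of the particle, had an FPKM of 1.45 and 1.89 in control, 4.04 and 3.36 after APAP and 2.28 and 2.59 after COS+APAP (log2 fold change 1.28, SE 0.19, adjusted p = 0.00477, edgeR). Its partner *Nop56* had 3.82 and 8.51 in control and 9.48 and 7.25 in APAP, so that the groups overlapped (log2 fold change 0.59, adjusted p = 0.264). *Nop56*, *Nop58*, *Dkc1* and *Rpl7a* host small nucleolar RNAs in their introns, and the files do not say how reads of those RNAs were assigned.

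Members that serve the mitochondrial ribosome had a median log2 fold change of -0.41, with 1 higher (12.5%) and 2 lower (25.0%) of 8. The lower share was near the 22.1% of all genes tested, and 23.3% of all genes were higher. The higher member was *Ddx28* (chr8:106009621-106011882), an RNA helicase of the mitochondrial large subunit, with an FPKM of 3.45 and 4.05 in control, 10.2 and 12.3 after APAP and 9.87 and 13.4 after COS+APAP. Both treated groups were above control and overlapped each other. The log2 fold change of APAP over control was 1.72 (SE 0.20, adjusted p = 0.00265, edgeR). *Ddx28* lies inside *Dus2* on the opposite strand, with 2262 shared bases. *Malsu1*, which binds the mitochondrial large subunit, was lower (FPKM 3.45 and 4.11 in control, 1.91 and 2.11 in APAP, log2 fold change -0.77, adjusted p = 0.0109), and so was the GTPase *Mtg2* (2.76 and 2.61 in control, 1.17 and 1.69 in APAP, log2 fold change -0.77, adjusted p = 0.0232). The call for *Malsu1* was lost without APAP replicate 1 (adjusted p = 0.053) or control replicate 3 (0.0509). That for *Mtg2* was lost without APAP replicate 1 (0.0612), control replicate 1 (0.0815) or control replicate 3 (0.0649).

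The 18 members that no role list held were mixed, with 4 higher (22.2%), 6 lower (33.3%) and a median of 0.02. The shares of all genes tested were 23.3% and 22.1%. The median of the 18 was -0.10 with upper-quartile scaling, -0.13 with library totals and -0.24 with totals without mitochondrial transcripts. That of all genes moved by about as much, to -0.12, -0.15 and -0.26 in the same order. *Ddx3x* (chrX:13280970-13294052), a DEAD-box helicase of translation initiation, had an FPKM of 9.44 and 8.82 in control, 30.5 and 28.7 after APAP and 11.5 and 13.4 after COS+APAP. No groups overlapped, and the APAP values stood apart from the other 4 (log2 fold change over control 1.83, SE 0.13, adjusted p = 0.00122, edgeR). Its Y-linked homologue is similar in sequence, so that reads may have been shared. *Cul4b*, a ubiquitin ligase scaffold, was 2.46-fold higher (adjusted p = 0.0031), *Pwp1* 1.93-fold (adjusted p = 0.00691) and *Rplp0* 1.46-fold (adjusted p = 0.0174, all edgeR). *Rplp0* had an FPKM of 206 and 203 in control, 266 and 279 after APAP and 229 and 270 after COS+APAP.

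The largest fall of any member was that of *Glul* (chr1:153899944-153909723). Its FPKM was 159 and 141 in control, 18 and 27.8 after APAP and 129 and 82.9 after COS+APAP. Both APAP libraries were far below the other 4, and both COS+APAP libraries were below both controls. Its log2 fold change of APAP over control was -2.58 (SE 0.29, adjusted p = 0.00246, edgeR). *Xpo1* (chr11:23256041-23297597), the export receptor that carries both subunit precursors out of the nucleus, had an FPKM of 2.74 and 2.98 in control, 0.87 and 1.11 after APAP and 2.95 and 2.90 after COS+APAP. Control and COS+APAP values overlapped, and both APAP values were below all of them (log2 fold change over control -1.39, SE 0.15, adjusted p = 0.0022, edgeR).

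*Mrpl36* (chr13:73328513-73332178), a protein of the mitochondrial large subunit, had an FPKM of 29.9 and 33.8 in control, 12.0 and 12.3 after APAP and 15.1 and 18.3 after COS+APAP. *Rbis* (chr3:14606284-14611285), a small nucleolar factor of ribosome assembly, had 19.8 and 24.3 in control, 9.05 and 8.25 after APAP and 12.3 and 12.3 after COS+APAP. In both genes the groups stood in the order control, COS+APAP, APAP with no overlap. The log2 fold changes of APAP over control were -1.25 for *Mrpl36* (adjusted p = 0.00276) and -1.21 for *Rbis* (adjusted p = 0.00295, both edgeR). The remaining lower members of this group were *Xrcc5*, the larger subunit of the Ku DNA repair complex (-0.80, adjusted p = 0.0113), and *Mrpl10* (-0.44, adjusted p = 0.0484). *Prkdc*, the kinase that works with Ku and an annotated gene outside the level rule, had an FPKM of 0.49 and 0.56 in control, 0.19 and 0.21 after APAP and 0.46 and 0.34 after COS+APAP.

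**Figure D3:**
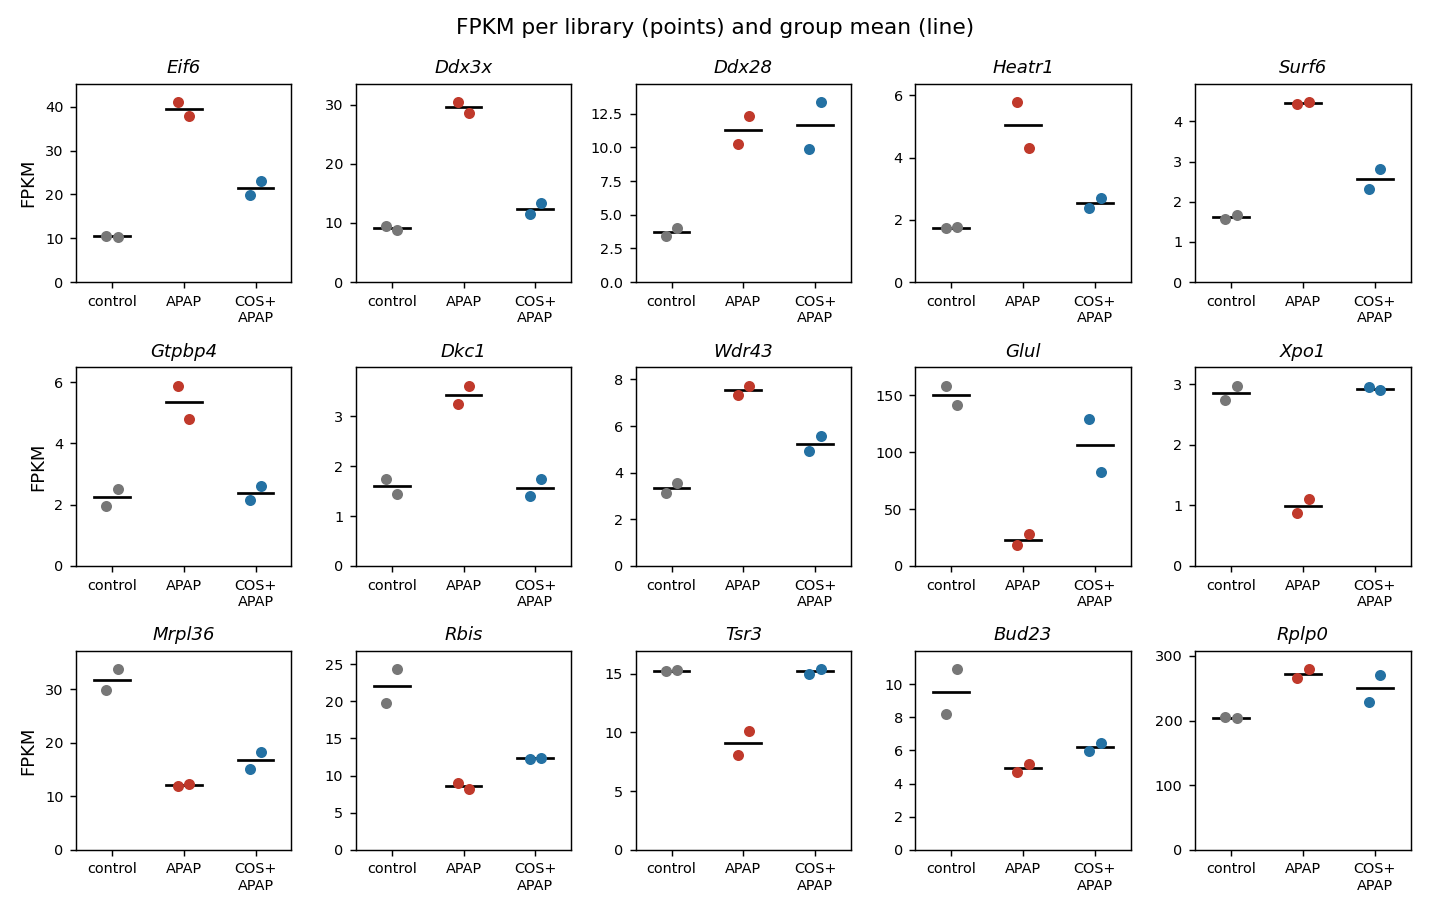
FPKM (vertical axis, from 0) of 15 members in the control, APAP and COS+APAP libraries, with 1 point per library and a line at the group mean. The first 8 panels hold members higher in APAP, such as *Eif6* at 41.2 and 37.8 against 10.6 and 10.3 in control. *Glul*, *Xpo1*, *Mrpl36*, *Rbis*, *Tsr3* and *Bud23* were lower in APAP, and *Rplp0* has the highest level of all members.

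The second comparison asked how liver pretreated with costunolide differed from liver given acetaminophen alone. In COS+APAP 4 members were higher than in APAP, 12 were lower and 81 did not pass. Among all genes tested, 11.2% were higher and 11.1% lower, 22.4% in either direction, and the members' shares were 4.12% and 12.4%. The share of lower members was thus near that of all genes, and the share of higher members was below it, with no test of either difference. The median log2 fold change was -0.11 for members and 0.01 for all genes. Upper-quartile scaling moved the median of all genes to 0.12, and 10 members were then higher and 10 lower. The counts depended on every library. The higher and lower counts were 2 and 1 without APAP replicate 1, 4 and 5 without APAP replicate 3, 2 and 2 without COS+APAP replicate 2, and 2 and 4 without COS+APAP replicate 3. This comparison shares its APAP libraries with the first one, so a gene with high APAP values takes opposite signs in both for that reason alone.

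The 4 higher members in COS+APAP were *Glul*, *Xpo1*, *Tsr3* and *Fcf1*. The log2 fold change of COS+APAP over APAP was 2.23 for *Glul* (SE 0.29, adjusted p = 0.00992) and 1.58 for *Xpo1* (SE 0.15, adjusted p = 0.00589), and it was 0.76 for *Tsr3* (adjusted p = 0.0199) and 0.72 for *Fcf1* (adjusted p = 0.0211, all edgeR). *Fcf1* had an FPKM of 18.2 and 18.7 in control, 10.6 and 12.6 after APAP and 20.3 and 17.5 after COS+APAP, with the control libraries inside the COS+APAP range.

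The 12 lower members included 5 large subunit factors (*Gtpbp4*, *Eif6*, *Surf6*, *Bop1* and *Nop53*), 3 processome proteins (*Heatr1*, *Imp4* and *Wdr43*) and the pseudouridine synthase gene *Dkc1*. The other 3 were *Riok2*, *Ddx3x* and *Cul4b*. *Ddx3x* had the greatest log2 fold change of COS+APAP over APAP among them, -1.23 (SE 0.13, adjusted p = 0.00713). It was -1.16 for *Gtpbp4* (adjusted p = 0.0172), -1.11 for *Dkc1* (adjusted p = 0.0178), -0.98 for *Heatr1* (adjusted p = 0.0222), -0.86 for *Eif6* (adjusted p = 0.0133) and -0.78 for *Surf6* (adjusted p = 0.0236, all edgeR). *Riok2*, a kinase needed for the final steps of the small subunit, had an FPKM of 8.49 and 9.13 in control, 11.04 and 8.88 after APAP and 5.95 and 5.46 after COS+APAP. Both its COS+APAP values were below the other 4, whose groups overlapped (log2 fold change over APAP -0.79, SE 0.16, adjusted p = 0.0236, edgeR). Of the members named here with a call in this comparison, *Ddx3x*, *Glul* and *Xpo1* passed with any 1 library left out.

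The third comparison set COS+APAP against control. In COS+APAP 20 members were higher than in control, 3 were lower and 74 did not pass. Among all genes tested, 10.7% were higher and 10.3% lower, 21.0% in either direction, and the members' shares were 20.6% and 3.09%. The median log2 fold change was 0.26 over the members and 0.02 over all genes. With library totals as the scale the median of all genes was -0.15 and that of the members 0.09. Then 8 members were higher and 6 lower, beside 715 and 1636 of the 10051 genes tested. With totals without mitochondrial transcripts the median of all genes was -0.21. In that setting 8 members were higher and 7 lower, beside 665 and 1843 of all genes. Limma on log2(FPKM + 1) gave 8 members higher beside 682 of all genes, and DESeq2 gave 33 beside 1698. With 1 library left out, fewer genes passed among the members and among all genes tested. The share of higher members was then near that of all genes without control replicate 1 or without COS+APAP replicate 3. The member median exceeded that of all genes by 0.24 without control replicate 1 and 0.26 without control replicate 3. It did so by 0.31 without COS+APAP replicate 2 and 0.24 without COS+APAP replicate 3.

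Large subunit factors made up 11 of the 20 higher members in COS+APAP and processome proteins 6. These roles hold 31 and 23 of the 97 members. *Ddx28* had the greatest log2 fold change of COS+APAP over control (1.79, SE 0.20, adjusted p = 0.00633), and that of *Eif6* was 1.20 (SE 0.13, adjusted p = 0.00602, both edgeR). *Gnl2*, a nucleolar GTPase of the large subunit precursor, had an FPKM of 8.73 and 10.0 in control, 16.2 and 15.1 after APAP and 17.1 and 17.1 after COS+APAP. Both COS+APAP libraries were above both APAP libraries, by less than the test could call (log2 fold change 0.15, adjusted p = 0.403), and its log2 fold change of COS+APAP over control was 1.02 (SE 0.12, adjusted p = 0.00717, edgeR). *Utp4* followed with 0.86 (adjusted p = 0.0095). Of the members named here with a call in this comparison, *Ddx28*, *Eif6* and *Gnl2* passed with any 1 library left out. The 3 lower members were *Mrpl36* (-0.77, adjusted p = 0.0212), *Rbis* (-0.68, adjusted p = 0.0286) and *Emg1* (-0.58, adjusted p = 0.0202, all edgeR).

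Genes of the same pathway that do not carry the annotation were read from role lists drawn up for ribosome assembly. Of 139 such genes tested, 52 were higher in APAP than in control and 19 lower, with a median log2 fold change of 0.31. These counts were 37.4% and 13.7% of the list, beside 23.3% and 22.1% of all genes tested. The higher and lower counts were 34 and 18 without control replicate 1, 33 and 10 without control replicate 3, 28 and 8 without APAP replicate 1 and 43 and 12 without APAP replicate 3. Scaling to totals without mitochondrial transcripts gave 33 and 29, with a median of 0.05. Under that scaling 1613 of all 10051 genes tested were higher and 3283 lower, with a median of -0.26. The large subunit list held 37 of them, with 22 higher, 4 lower and a median of 0.69, and 11 to 16 higher and 0 to 4 lower with 1 library left out, fewest without APAP replicate 1. The polymerase I list held 13, with 6 higher, 0 lower and a median of 0.42 (at an unadjusted p below 0.05 edgeR gave 6 and 0, and DESeq2 called 6 and 0). It was 4 and 1 without control replicate 1 and 3 and 0 without APAP replicate 1. *Ddx21*, a nucleolar helicase that couples polymerase I to rRNA processing, had an FPKM of 4.40 and 4.38 in control, 14.6 and 14.9 after APAP and 6.82 and 8.14 after COS+APAP. Its groups did not overlap, and its log2 fold change of APAP over control was 1.89 (SE 0.13, adjusted p = 0.00114, edgeR).

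*Polr1b*, the second largest polymerase I subunit, was higher in APAP by a log2 fold change of 1.13 (adjusted p = 0.00313), *Gnl3* (nucleostemin) by 1.00 (adjusted p = 0.00624), the chaperone *Npm1* by 0.66 (adjusted p = 0.0125) and nucleolin, *Ncl*, by 0.43 (adjusted p = 0.0192, all edgeR). The polymerase I factors *Ubtf* (0.21, adjusted p = 0.261) and the member *Rrn3* (0.28, adjusted p = 0.28) did not pass, nor did fibrillarin, *Fbl* (0.18, adjusted p = 0.308). *Myc*, a transcription factor known to drive ribosome biogenesis genes, had an FPKM of 16.2 and 16.6 in control, 24.6 and 26.4 after APAP and 5.49 and 13.2 after COS+APAP. Its groups did not overlap, yet neither contrast passed (log2 fold change of APAP over control 0.77, SE 0.39, adjusted p = 0.16, and of COS+APAP over APAP -1.42, SE 0.40, adjusted p = 0.0561, edgeR).

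Structural genes of the ribosome were counted in the same way. Among all genes tested, 23.3% were higher in APAP and 22.1% lower. Of 80 cytosolic ribosomal protein genes, 8 were higher in APAP (10.0%), 11 were lower (13.8%) and the median was -0.09. Without control replicate 3 this became 8 higher, 1 lower and a median of 0.05, and the lower count was 3 without APAP replicate 1 and 2 without APAP replicate 3. Scaling to totals without mitochondrial transcripts gave 4 higher and 28 lower of the 80. Under that scaling 1613 of all 10051 genes tested were higher and 3283 lower. Of 82 mitochondrial ribosomal protein genes, a list chosen after seeing the data and holding the members *Mrpl36* and *Mrpl10*, edgeR called 0 higher and 43 lower, with a median of -0.49. At an unadjusted p below 0.05 it gave 3 higher and 52 lower, DESeq2 called 3 and 50, and limma on log2(FPKM + 1) called 0 and 53. With 1 library left out 27 to 32 of these genes were lower, 27 of them without control replicate 3 and 27 without APAP replicate 1.

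Among all genes tested, 11.2% were higher and 11.1% lower in COS+APAP than in APAP, and 10.7% and 10.3% than in control. In COS+APAP against APAP, 13 of the 82 mitochondrial ribosomal protein genes were higher (15.9%) and 2 lower (2.44%). The higher count fell to 0 without APAP replicate 1, 3 without APAP replicate 3, 0 without COS+APAP replicate 2 and 1 without COS+APAP replicate 3. In COS+APAP against control edgeR called 0 higher and 24 lower (2 and 32 at an unadjusted p below 0.05, and 1 and 33 with DESeq2), and the lower count was 11 without control replicate 1, 3 without control replicate 3, 4 without COS+APAP replicate 2 and 3 without COS+APAP replicate 3. The list of mitochondrial ribosome assembly factors had 2 higher and 9 lower of 22 in APAP, with a median of -0.47, and its lower count was 5 without control replicate 1, 2 without control replicate 3, 2 without APAP replicate 1 and 5 without APAP replicate 3. Exosome and rRNA nuclease genes had 3 higher (13.6%) and 4 lower (18.2%) of 22 in APAP against control, with a median of -0.16. Both shares were below those of all genes tested, 23.3% and 22.1%. Of all 593 tested genes annotated to the nucleolus, members included, 206 were higher (34.7%) and 89 lower (15.0%) in APAP, with a median of 0.21. Within the members, the 74 that are also annotated to the nucleolus had 38 higher (51.4%) and 7 lower (9.46%) and a median of 0.57. The lower count was 4 without control replicate 1, 4 without control replicate 3 and 3 without APAP replicate 1.

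**Figure D4:**
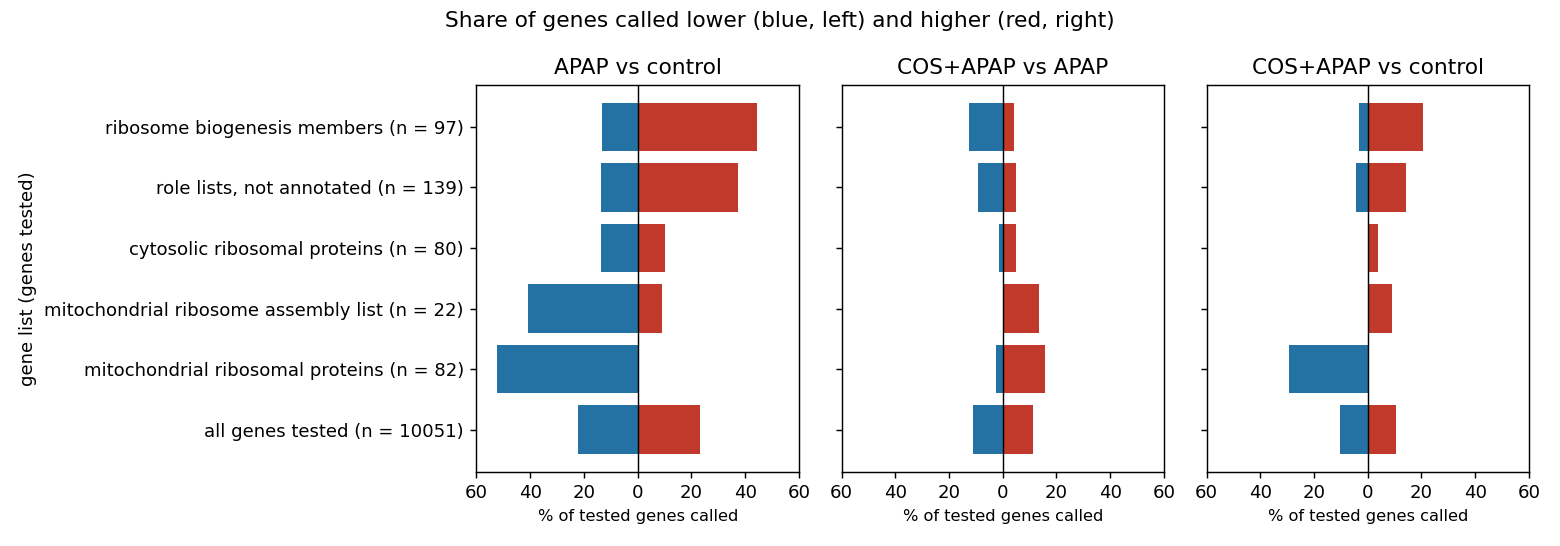
Bars give the percentage of tested genes called higher (red, right of 0) and lower (blue, left of 0) in each comparison, for the members, for role-list genes without the annotation, for 3 lists of ribosomal and mitochondrial ribosome genes and for all genes tested (n in brackets). In APAP against control the members stand at 44.3% higher and 13.4% lower beside 23.3% and 22.1% of all genes, and 43 of 82 mitochondrial ribosomal protein genes were lower.

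Promoters were examined because many members moved in 1 direction. RefSeq promoter windows (build GRCm38.p6, 250 bases before to 50 after the RefSeq start) matched 77 of the 97 members. The letters CACGTG, an E-box that reads the same on both strands, were present in a window of 15 of the 77 (19.5%), of 12.3% of all tested genes and of 8.09% of all genes with a window. Of the 15 members with the letters, 8 were higher and 2 lower in APAP, with a median log2 fold change of 0.66, and of the 62 without them 25 were higher and 6 lower, with a median of 0.36. The letters CCGGAAG, searched on both strands, chosen after seeing the data and not overlapping the E-box letters, were present in 28 of 77 members (36.4%), 22.0% of tested genes and 9.93% of all. Of these 28 members, 11 were higher and 2 lower in APAP, with a median of 0.32. Of the 49 without CCGGAAG, 22 were higher and 6 lower, with a median of 0.45, so the medians stood in the opposite order to those for the E-box. Neither split was tested. A match is a stretch of letters and not a bound site.

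The stretches around the E-box of the 3 higher members with the greatest log2 fold change that hold it, *Tsr1*, *Wdr43* and *Imp4*, are shown beside those of the 2 lower members that hold it, *Mrpl36* and *Xrcc5*, to show that the letters occur with both directions. Capitals mark CACGTG, each with 12 bases on either side, on the + strand and read in the direction of the gene.
*Tsr1*, chr11:74898092-74898121: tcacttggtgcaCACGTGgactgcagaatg
*Wdr43*, chr17:71616220-71616249: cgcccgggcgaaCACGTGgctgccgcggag
*Imp4*, chr1:34439696-34439725: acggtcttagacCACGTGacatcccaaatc
*Mrpl36*, chr13:73330954-73330983: cacacgtcatccCACGTGaccttacgccat
*Xrcc5*, chr1:72307211-72307240: tgatgtgtgggaCACGTGgagatcagaggg
Counted from the RefSeq start of each window, the E-box began at base 25 of the transcript for *Tsr1* and at base 18 for *Wdr43*, and it began 121 bases before the start of *Imp4*, 43 before that of *Mrpl36* and 198 before that of *Xrcc5*. RefSeq starts of these 5 genes differ from the gene starts in the deposited table. The RefSeq start lies 320 bases inside the table's gene for *Wdr43* and 2496 bases inside it for *Mrpl36*, so both E-boxes lie within the table's gene spans, 337 and 2453 bases after the gene start. Taken whole, the 12 bases on either side differ between all 5 stretches, but the bases next to the E-box are partly shared. It has an a before and a g after it in *Tsr1*, *Wdr43* and *Xrcc5*, and a c before and ac after it in *Imp4* and *Mrpl36*. *Tsr1* is also the member of the 3 higher ones whose call was lost without APAP replicate 1 or without APAP replicate 3.

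The genes outside the list with a pattern most like that of the members were found by Pearson correlation over the 6 libraries. It was taken between log2(FPKM + 1) of each gene and the mean standardised member level on the same measure. They were *Hnrnpdl* (r = 0.994), *Rnf40* (0.993), *Ddx18* (0.991), *Appl1* (0.990) and *Nol9* (0.989). *Ddx18* and *Nol9* stand on the large subunit list. *Ddx18*, a nucleolar helicase, had an FPKM of 3.41 and 3.95 in control, 6.54 and 7.29 after APAP and 4.45 and 5.54 after COS+APAP, and its groups did not overlap. The 6 points share library, scaling and group, so these values are a description with no p.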

How the data were processed

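Poly(A) RNA of 6 mouse liver libraries was sequenced in pairs, per the labels' protocols, and the submitters' processing notes name HISAT2 2.0 and StringTie 1.3.0. No source used here gives the genome build, and 91 of the 97 members have the same coordinates in the GENCODE annotation of GRCm38. The authors deposited FPKM and estimated counts per gene, per the file headers. The estimated counts were whole numbers that peaked at multiples of 4, so that 1 fragment stands for about 4. A further 6 value columns matched no sample and were not used.

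The 10051 genes whose mean FPKM reached 1 were tested on the estimated counts with edgeR 4.0.16 (R 4.3.3): quasi-likelihood F test, TMM scaling of library totals, 1 model of 3 groups, two-sided, Benjamini-Hochberg adjustment over all genes, called below 0.05. SE is the log2 fold change over the square root of F. With 2 against 2 libraries an exact permutation test of a single gene cannot give a p below 0.333. The scripts were tested on simulated data. Replicate numbers 1 and 3 recur in control and APAP, and the block on them was an alternative, with limma 3.58.1 and DESeq2 1.42.0 among the others.

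Members, role lists and tests were chosen with earlier results of these data known. The genes named are, per comparison and role, the 3 called members with the largest change, called members against the majority direction, the 5 highest levels, the genes nearest the level threshold, a list by name and the 5 most alike genes. Members outside this rule were named after their values were seen. Cell markers were read as summed FPKM. Of the 97 members, 20 overlap another gene of mean FPKM at least 1, 18 of them on the opposite strand.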

Additional observations from a re-analysis of the deposited data

How the results depend on the processing

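The 45 results for single members were chosen among calls of the main test, mostly by size of change. A reversal was therefore unlikely from the start. Only 16 of the 45 kept the call under every alternative. Alternatives gave 744 values for these 45 results. Of these, 626 kept the direction and the call, 118 kept the direction and lost the call, and none changed direction. In APAP against control, leaving out 1 library gave 33 to 39 higher and 5 to 11 lower members. Testing genes of mean FPKM at least 5 gave 21 higher (fewer members tested, 47), a threshold of 0.01 gave 28 higher and 4 lower, and asking for 2-fold gave 20 and 4. In COS+APAP against APAP, leaving out 1 library gave 2 to 4 higher and 1 to 5 lower. Upper-quartile scaling gave 10 higher, DESeq2 11 higher and 27 lower, no level filter 7 lower, a mean FPKM of at least 5 gave 6 lower, a threshold of 0.01 gave 2 higher and 1 lower, and 2-fold gave 2 and 3. In COS+APAP against control, leaving out 1 library gave 3 to 8 higher and 0 to 2 lower. Library totals gave 8 higher and 6 lower, totals without mitochondrial transcripts 8 and 7, DESeq2 33 and 5, limma 8 higher with a pseudocount of 1 and 7 with 0.1, no level filter 8 and 1, filterByExpr 13 higher and the 2 groups alone 13 higher. A threshold of 0.01 gave 4 higher and 0 lower, and 2-fold gave 3 and 0. The causes were not tested, apart from the stricter thresholds and the smaller sets of genes or libraries. Alternatives chosen after seeing the data, counts divided by 4 and leaving out *Glul*, moved no count of called members by over 1.5 times.

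With the replicate number as a block, 38 members were higher and 8 lower in APAP than in control, beside 1794 and 1576 of all 10051 genes. Members called higher and lower numbered 0 and 0 in COS+APAP against APAP, and 1 and 0 in COS+APAP against control (at an unadjusted p below 0.05, 5 and 8, and 25 and 4, in edgeR). Few of all genes passed either, 16 and 15 in COS+APAP against APAP and 89 and 50 in COS+APAP against control. That fit leaves 1 residual degree of freedom and replicate 2 occurs in 1 library. The difference of replicate 3 from the other replicate had a correlation over 10051 genes of 0.017 between control and APAP, 0.051 between control and COS+APAP and -0.041 between APAP and COS+APAP. None was over 0.1, and COS+APAP shares only number 3 with the other groups, so the libraries were treated as sharing only a number.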
